A study of Mus musculus with 12 samples.

Results

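The C-type lectin genes named Clec were followed across leukaemic stem cells of 2 mouse models. A gene was a member where a probe set carried its symbol alone in the array's annotation table and the symbol began with Clec and a digit. This gave 26 genes of the 18193 with such a probe set, measured by 36 probe sets, and where a gene had several, the one with the highest mean over the 12 arrays stood for it. The cells came from MLL-AF9 driven de novo acute myelogenous leukaemia (AML), sorted as Lin-Sca1-ckit+, and from blast crisis chronic myelogenous leukaemia (bcCML) driven by BCR-ABL with NUP98-HOXA9, sorted as Lin-. In each model, 3 arrays came from leukaemias started in wild-type stem and progenitor cells and 3 from cells of Msi2 Gt/Gt mice, which carry a gene trap in the RNA-binding protein gene Msi2. The strain of all samples is given as B6;CB-Msi2Gt(pU-21T)2Imeg, the leukaemias grew in transplanted mice, and no agent was given. The ages of the animals, and whether cells were pooled, are not given in the sources used here. The trap lowered Msi2 RNA without removing it (limma log2 difference -2.11 ± 0.34 in AML and -2.63 ± 0.34 in bcCML, SE, 3 arrays against 3).

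C-type lectin domains are protein folds that bind sugars, lipids or other proteins, often with the help of calcium. Many Clec proteins are receptors of myeloid cells, where they recognise microbes and dying cells. Many Clec genes lie in clusters within the natural killer gene complex, while others, such as Clec10a on chromosome 11, lie elsewhere. Activating receptors signal through the kinase Syk and the scaffold protein Card9, either with their own tyrosine motif or through the adaptors Fcer1g and Tyrobp, whereas inhibitory receptors recruit the phosphatases Ptpn6 and Ptpn11. Other members are ligands of natural killer receptors or secreted proteins.

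The deposited values are linear intensity units per probe set. The 12 arrays had median intensities between 13.1 and 13.8 units and the same floor of 4.49, and between 48.4% and 48.8% of probe sets lay above 16 units, which is log2 4. Replicate arrays correlated at 0.938 to 0.981. Kit, which marked the AML sort, lay between 78.2 and 546 units on every array. A list of 12 monocyte and macrophage markers, 10 of them on the array table, averaged between 8.74 and 10.8 (log2) on the AML arrays and between 5.28 and 6.06 on the bcCML arrays. Of these 10, 9 were above log2 4 on all AML arrays, while Csf1r, Cd14 and Ms4a6c were below it on all bcCML arrays. The remaining marker, Fcgr1, went the other way, at 6.28 ± 2.40 units in wild-type AML and 29.4 ± 21.4 in wild-type bcCML (SD, n = 3). In sorted bulk cells, fewer cells of a type and less RNA per cell cannot be told apart.

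Of the 26 Clec genes, 14 were above log2 4 on at least 3 of the 12 arrays and were among the 10817 genes tested. By group mean, 14 lay above log2 4 in wild-type AML, 13 in mutant AML, 8 in wild-type bcCML and 7 in mutant bcCML. The share of members lay between 26.9% and 53.8%, where 55.6% to 56.0% of all 18193 genes lay above it in each of the 4 groups. On all 12 arrays 6 members were above it, namely Clec2d, Clec2i, Clec4d, Clec4e, Clec1b and Clec11a.

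The other 12 members were not tested. Clec12b (an inhibitory receptor), Clec14a (an endothelial protein), Clec1a, Clec2e, Clec2g, Clec2h, Clec2l, Clec2m, Clec3b (the plasminogen-binding protein tetranectin), Clec4f (a Kupffer cell receptor) and Clec4g (a receptor of liver sinusoidal endothelium) were below 16 units on every array, at most 13.2 units for Clec2g and under 10 for the rest. Clec16a, whose product acts in endosomes and mitophagy, lay between 4.56 and 18.1 units and passed on 1 array, of mutant bcCML. These probe sets were at or near the floor, so their levels are bounds and no difference was read from them.

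**Figure D1:**
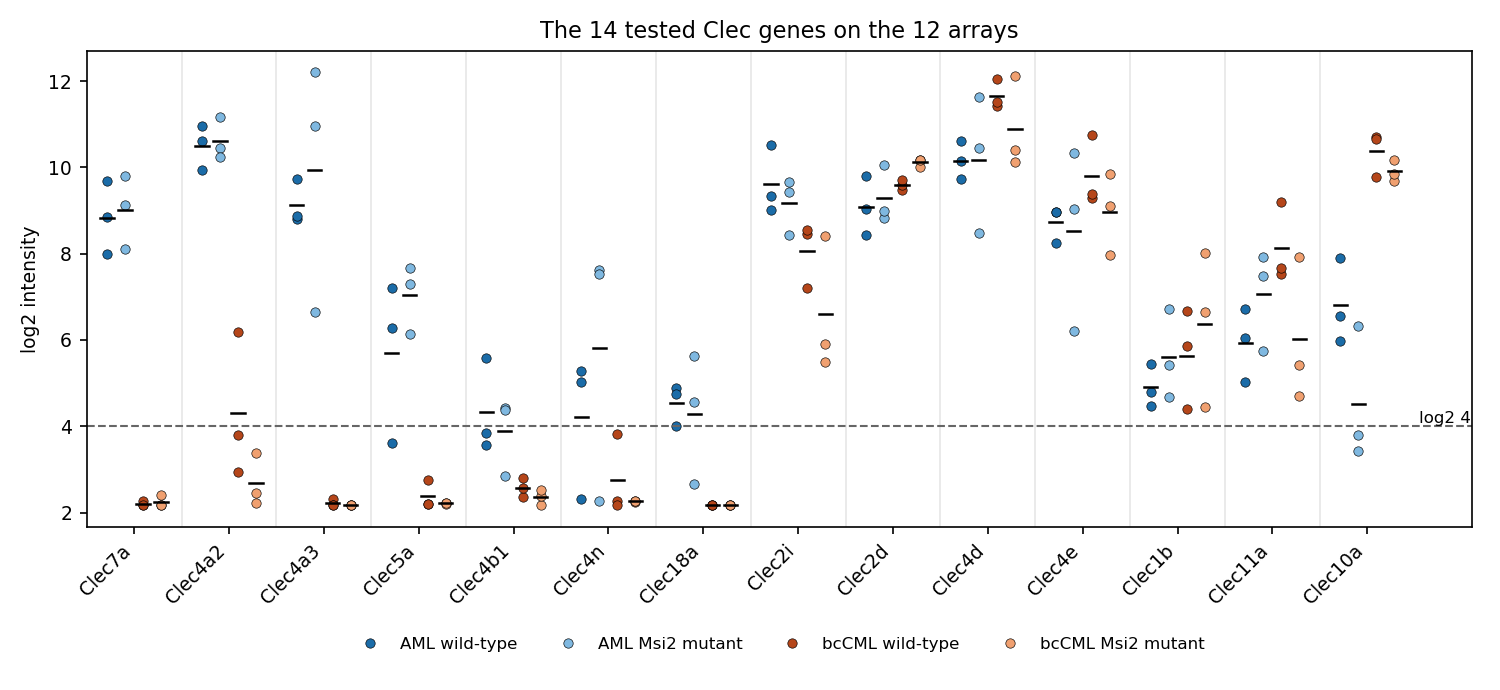
Log2 intensity (vertical axis) of the 14 tested Clec genes on each of the 12 arrays, with 3 points per group, the group mean as a bar and the dashed line at log2 4. Clec7a, Clec4a3, Clec5a and Clec18a lie below the line on all 6 bcCML arrays, and Clec10a lies higher on every bcCML array than on any AML array.

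The first comparison was between the leukaemias, which also differ in their sorting gates, so that oncogene and gate cannot be told apart. In wild-type cells 7 of the 14 tested members passed the threshold (limma, adjusted p under 0.05 over all 10817 genes), 6 lower and 1 higher in bcCML, where 36.9% of all tested genes passed (19.3% lower and 17.7% higher). In Msi2 mutant cells 9 passed, 8 lower and 1 higher, against 45.1% of all genes (21.9% lower and 23.2% higher). The median log2 difference of the 14, bcCML minus AML, was -1.5 in wild-type and -1.82 in mutant cells, beside 0.0041 and 0.033 over all tested genes. Clec7a, Clec4a3, Clec5a, Clec18a, Clec4b1 and Clec4n passed the filter on dim probe sets through AML arrays alone. For these members the filter itself favoured lower values in bcCML, so the split of directions and the medians are partly set by it. The 7 genes of the wild-type comparison (Clec7a, Clec4a2, Clec4a3, Clec5a, Clec4b1, Clec18a and Clec10a) also passed in mutant cells, joined by Clec2i and Clec4n. The arrays of the leukaemias did not overlap for 7 lower and 4 higher members in wild-type cells (26.8% and 25.6% of all tested genes), and for 7 lower and 1 higher in mutant cells (26.5% and 29.0%).

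**Figure D2:**
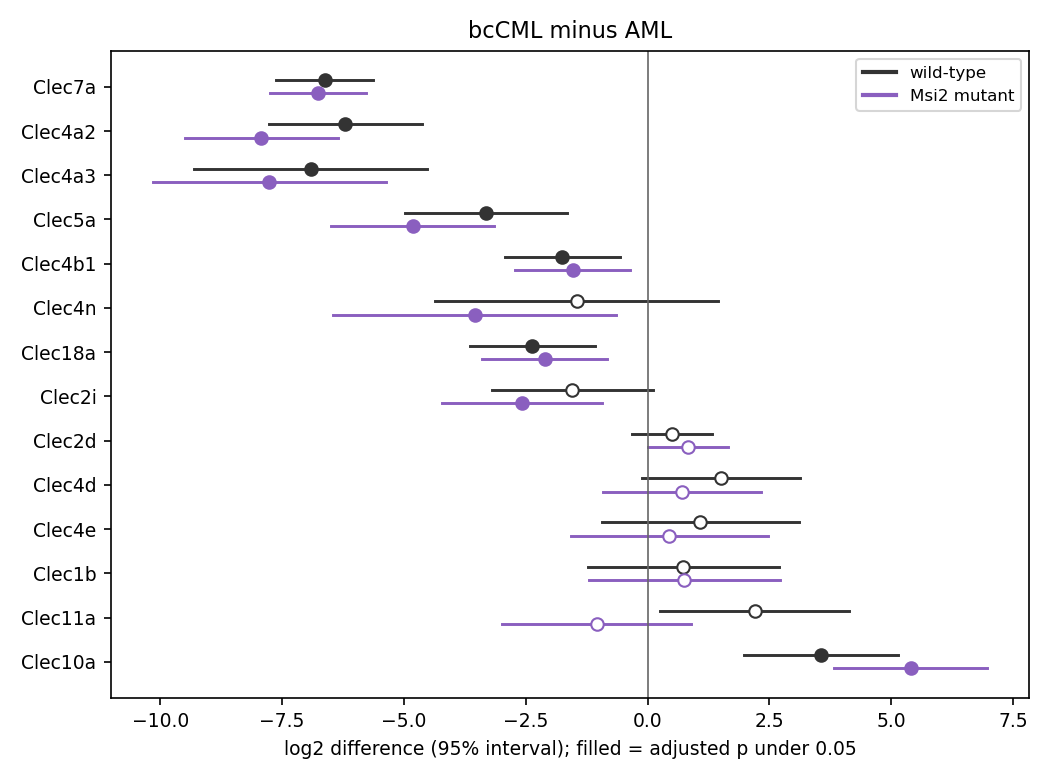
Log2 difference of each tested Clec gene, bcCML minus AML (horizontal axis), in wild-type and in Msi2 mutant cells, with 95% intervals from limma and filled points where the adjusted p was under 0.05. Clec7a, Clec4a2 and Clec4a3 have the lowest estimates, between -7.93 and -6.20, and Clec10a is the filled gene on the right.

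The receptors that signal through their own tyrosine motif were Clec7a and Clec1b. Clec7a, Dectin-1, is the receptor for fungal beta-glucan. It measured 461, 817 and 254 units on the wild-type AML arrays, 278, 888 and 556 on the mutant AML arrays, and between 4.51 and 5.28 on all 6 bcCML arrays. The AML and bcCML ranges were far apart, with all bcCML values near the floor. With the bcCML groups below 16 units, Clec7a was at least 28.6-fold lower in wild-type and at least 32.2-fold lower in mutant bcCML (limma adjusted p = 1.93e-06 and 1.34e-06).

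Clec1b, CLEC-2, is the podoplanin receptor of platelets. It measured 43.4, 22.2 and 27.7 units in wild-type AML, 106, 43.0 and 25.6 in mutant AML, 57.9, 21.1 and 101 in wild-type bcCML, and 257, 21.8 and 99.6 in mutant bcCML. The 4 groups overlapped and no comparison passed (limma log2 difference between the wild-type leukaemias 0.74 ± 0.88, SE; adjusted p = 0.548). On the bcCML arrays, in the same order, 7 megakaryocyte and platelet markers averaged 7.34, 6.18, 7.20, 8.13, 5.93 and 7.10 (log2). Clec1b was highest on the array where these markers were highest, mutant bcCML array 1, and lowest on the arrays where they were lowest. Among AML arrays the markers averaged between 2.42 and 3.54, again highest on the array with the most Clec1b, mutant AML array 1, and the part of such cells in the Clec1b values was not tested.

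Inhibitory receptors were represented by Clec4a2, DCIR, whose tail carries an inhibitory tyrosine motif. Its relative Clec4a3 is described beside it, as a relative by sequence and not as an inhibitory receptor. Clec4a2 measured 1576, 975 and 1991 units in wild-type AML and 2289, 1398 and 1205 in mutant AML. In bcCML it measured 73.0, 13.9 and 7.61 units in wild-type and 10.4, 5.49 and 4.69 in mutant cells. Every AML array was above every bcCML array, and only wild-type bcCML array 1 exceeded 16 units in bcCML. The log2 difference in wild-type cells was -6.20 ± 0.71 (SE; limma adjusted p = 8.68e-05), and Clec4a2 was at least 98.0-fold lower in mutant bcCML (limma adjusted p = 1.17e-05).

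A second Clec4a2 probe set gave 655 to 1407 units in AML and 4.57 to 22.7 in bcCML, so both probe sets showed the same difference. Another probe set is annotated to Clec4b1 and Clec4a2 together and was left out of the tests. It was the brightest, at 8062 ± 1111 units in wild-type AML, 9175 ± 1852 in mutant AML, 328 ± 182 in wild-type bcCML and 104 ± 116 in mutant bcCML (SD, n = 3).

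Clec4a3 measured 845, 446 and 468 units in wild-type AML and 100, 4713 and 1990 in mutant AML. In bcCML it lay between 4.5 and 4.98 units on all 6 arrays. It was therefore at least 35.1-fold lower in wild-type and at least 61.2-fold lower in mutant bcCML (limma adjusted p = 0.000683 and 0.000239). Mutant AML array 1 was below all the other AML arrays, and mutant array 2 was above them.

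The receptors that need an adaptor differed among themselves. Clec5a, MDL-1, which pairs with Tyrobp and Hcst, measured 77.6, 147 and 12.1 units in wild-type AML, 70.1, 205 and 156 in mutant AML, and 4.56 to 6.70 in bcCML. It was at least 3.23-fold lower in wild-type and at least 8.19-fold lower in mutant bcCML (limma adjusted p = 0.00622 and 0.000510). Clec4b1, DCAR, a partner of Fcer1g, was dim in AML (11.8, 48.0 and 14.3 units in wild-type, 7.25, 21.5 and 20.9 in mutant cells) and between 4.5 and 7.0 in bcCML. It passed in both comparisons (limma adjusted p = 0.0256 and 0.0373), with 3 of the 6 AML arrays above 16 units. In mutant cells both group means lay below log2 4 (3.89 in AML and 2.35 in bcCML), so no fold bound can be given there. The wild-type call ended without wild-type AML array 2, wild-type bcCML array 2 or wild-type bcCML array 3 (highest adjusted p 0.0728), and the mutant call without any of 6 arrays (highest 0.121): mutant AML array 2 or 3, wild-type bcCML array 3, or any mutant bcCML array. Both Clec4b1 calls also ended with no filter on dim probe sets, and with 16 units added before the log. The wild-type call ended too when only the wild-type groups were fitted with the replicate number as a block.

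Clec4n, Dectin-2, a mannan receptor that pairs with Fcer1g, measured 32.8, 38.6 and 5.0 units in wild-type AML and 4.80, 197 and 186 in mutant AML. In bcCML it was below 16 units throughout, at most 14.2. It passed in mutant cells (at least 3.50-fold lower in bcCML; limma adjusted p = 0.0480), where the arrays still overlapped because mutant AML array 1 lay at the floor, and not in wild-type cells (limma adjusted p = 0.417). The mutant call ended on leaving out any array except wild-type AML array 3 and mutant AML array 1, with adjusted p values up to 0.162. It also ended with no filter on dim probe sets, and when only the mutant groups were fitted, with or without the replicate number as a block. A second Clec4n probe set gave 4.68 to 189 units in AML and 4.51 to 13.3 in bcCML.

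Clec4d, MCL, and Clec4e, Mincle, which recognises mycobacterial glycolipid, were high in both leukaemias. Clec4d measured 1562, 847 and 1129 units in wild-type AML, 356, 3149 and 1389 in mutant AML, 4208, 2751 and 2930 in wild-type bcCML, and 4420, 1356 and 1120 in mutant bcCML. The wild-type groups did not overlap, but the log2 difference of 1.5 ± 0.73 (SE) did not pass (limma adjusted p = 0.135). It passed without mutant AML array 1 (limma adjusted p = 0.0452). The wild-type Clec4d difference also passed when only the wild-type groups were fitted, with or without the replicate number as a block.

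Clec4e measured 497, 499 and 304 units in wild-type AML and 73.4, 1297 and 522 in mutant AML. In bcCML it measured 626, 1725 and 663 units in wild-type and 555, 914 and 249 in mutant cells. The wild-type bcCML arrays were all above the wild-type AML arrays, the mutant arrays overlapped, and neither comparison passed (limma adjusted p = 0.384 and 0.721). Its dimmer probe set spanned 25.3 to 294 units across AML and 31.3 to 288 across bcCML.

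On chromosome 6 the genes Clec4a3, Clec4b1, Clec4a2, Clec4n, Clec4d and Clec4e lie in this order within a single cluster. Clec4a3, Clec4b1, Clec4a2 and Clec4n, each by the probe set that stood for it, were below 16 units on every bcCML array, except Clec4a2 on wild-type array 1. The second Clec4a2 probe set exceeded 16 units on 2 bcCML arrays (21.6 and 22.7 units), and the one shared with Clec4b1 was brighter, as given above. Clec4d and Clec4e were far above 16 units on all bcCML arrays. Clec1b and Clec7a lie in a second cluster of the same chromosome, and there too the neighbours had different patterns. The RefSeq promoter table held 12 of the 14 tested members. The windows of 4 genes high in AML and low in bcCML and of the 2 cluster members high in both are printed for comparison. Of these, Clec5a lies on the same chromosome but outside both clusters. Each runs from 250 bases before to 50 bases after the most upstream start, 5′ to 3′ on the gene's strand, build GRCm38.p6. Capitals mark 4 motifs searched on both strands. GAGGAA is a core sequence bound by Spi1, the myeloid master regulator, and by other Ets family transcription factors. TTGCNNAA stands for the site of the C/EBP family, which works with Spi1 in granulocyte and monocyte development. TGTGGT is the core recognised by Runx factors, which are needed for blood stem cells. AGATAA is a form of the site that Gata factors bind in erythroid and megakaryocyte cells.
Clec7a (chr6:129472736-129473035, minus strand): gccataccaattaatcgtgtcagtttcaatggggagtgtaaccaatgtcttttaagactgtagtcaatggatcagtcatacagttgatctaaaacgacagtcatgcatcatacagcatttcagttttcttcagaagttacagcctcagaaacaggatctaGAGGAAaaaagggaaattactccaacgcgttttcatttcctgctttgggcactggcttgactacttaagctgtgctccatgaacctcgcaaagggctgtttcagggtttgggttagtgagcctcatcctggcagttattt
Clec4a2 (chr6:123122440-123122739, plus strand): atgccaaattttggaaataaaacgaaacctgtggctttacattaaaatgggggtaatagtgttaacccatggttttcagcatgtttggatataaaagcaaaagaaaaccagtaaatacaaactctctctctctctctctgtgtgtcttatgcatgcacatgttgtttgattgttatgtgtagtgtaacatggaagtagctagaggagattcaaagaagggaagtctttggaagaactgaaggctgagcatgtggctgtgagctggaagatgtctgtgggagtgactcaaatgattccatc
Clec4a3 (chr6:122952265-122952564, plus strand): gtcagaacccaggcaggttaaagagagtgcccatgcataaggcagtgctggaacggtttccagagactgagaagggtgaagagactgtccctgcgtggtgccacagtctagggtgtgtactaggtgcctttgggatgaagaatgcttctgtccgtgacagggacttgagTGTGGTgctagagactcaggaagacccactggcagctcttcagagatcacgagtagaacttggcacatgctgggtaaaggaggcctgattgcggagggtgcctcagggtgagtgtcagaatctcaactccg
Clec5a (chr6:40585756-40586055, minus strand): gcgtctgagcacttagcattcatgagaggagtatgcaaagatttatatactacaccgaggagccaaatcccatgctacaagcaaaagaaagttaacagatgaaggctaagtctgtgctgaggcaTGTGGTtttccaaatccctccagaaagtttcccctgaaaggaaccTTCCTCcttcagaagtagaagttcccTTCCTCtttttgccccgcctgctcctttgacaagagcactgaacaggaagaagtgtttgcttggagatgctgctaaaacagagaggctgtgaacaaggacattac
Clec4d (chr6:123261857-123262156, plus strand): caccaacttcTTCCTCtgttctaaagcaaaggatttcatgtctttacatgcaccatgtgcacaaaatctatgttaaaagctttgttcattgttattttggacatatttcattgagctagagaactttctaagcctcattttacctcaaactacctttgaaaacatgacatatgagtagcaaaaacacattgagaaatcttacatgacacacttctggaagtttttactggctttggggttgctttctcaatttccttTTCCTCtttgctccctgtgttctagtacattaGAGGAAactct
Clec4e (chr6:123289822-123290121, minus strand): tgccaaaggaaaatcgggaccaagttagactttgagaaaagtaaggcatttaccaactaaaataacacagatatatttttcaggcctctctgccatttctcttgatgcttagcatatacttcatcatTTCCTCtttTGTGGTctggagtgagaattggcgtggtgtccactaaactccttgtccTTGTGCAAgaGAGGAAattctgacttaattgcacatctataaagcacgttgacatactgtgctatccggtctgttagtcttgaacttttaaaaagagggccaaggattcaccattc
The Ets letters were found in 7 of the 12 members, beside 28.3% of 27025 promoters of the same length. The Runx letters were in 4 (16.9% of promoters), the C/EBP letters in 3 (10.7%) and the Gata letters in 1, Clec1b (11.4%). No matches overlapped. Clec7a held the Ets letters once, its first base 90 bases before the start, and Clec5a held its reverse 81 and 55 bases before. Clec4d had 3 such matches and Clec4e 2. Clec4a2 held none of the 4 motifs and Clec4a3 held the Runx letters alone, and both had the same AML-high pattern as Clec7a. The cluster member Clec4b1, lower in bcCML and not printed, held the Ets letters 68 and 39 bases before the start. It also held the Runx letters 9 bases after the start. These are letters in a window, and no binding was measured.

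Clec10a, MGL1, an uptake receptor for galactose and N-acetylgalactosamine on macrophages and dendritic cells, was the member with the opposite pattern. It measured 237, 63.3 and 93.8 units in wild-type AML, 10.7, 79.6 and 13.8 in mutant AML, 1662, 1611 and 873 in wild-type bcCML, and 820, 927 and 1162 in mutant bcCML. Every bcCML array exceeded every AML array. The log2 difference was 3.57 ± 0.71 in wild-type and 5.40 ± 0.71 in mutant cells (SE; limma adjusted p = 0.00304 and 0.000170).

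Of the Clec2 genes, which encode ligands of natural killer receptors, Clec2d and Clec2i were measurable. Clec2d, Clr-b, is the ligand of the inhibitory receptor Klrb1b. It measured 522, 898 and 347 units in wild-type AML, 451, 505 and 1069 in mutant AML, 714, 770 and 834 in wild-type bcCML, and 1148, 1025 and 1162 in mutant bcCML. The leukaemias overlapped, and the log2 differences of 0.50 ± 0.37 and 0.83 ± 0.37 (SE) did not pass (limma adjusted p = 0.319 and 0.0904).

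Clec2i, Clr-g, is a ligand of Klrb1f. It measured 643, 518 and 1462 units in wild-type AML, 346, 806 and 695 in mutant AML, 353, 375 and 148 in wild-type bcCML, and 44.8, 341 and 59.7 in mutant bcCML. Each bcCML group lay below its AML counterpart. The difference passed in mutant cells (log2 -2.58 ± 0.74, SE; limma adjusted p = 0.0168) and not in wild-type cells (-1.55 ± 0.74; adjusted p = 0.131). The mutant call ended without mutant AML array 2 or mutant bcCML array 1 or 3 (highest adjusted p 0.0645). The wild-type difference passed without mutant bcCML array 2 (limma adjusted p = 0.0389) and with array weights. The other Clec2i probe set gave 52.1 to 435 units in AML and 17.1 to 242 in bcCML.

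Clec11a and Clec18a encode secreted proteins. Clec11a, stem cell growth factor, measured 32.8, 65.6 and 105 units in wild-type AML, 244, 180 and 53.6 in mutant AML, 184, 586 and 202 in wild-type bcCML, and 26.0, 42.9 and 242 in mutant bcCML. The wild-type leukaemias did not overlap, yet the log2 difference of 2.20 ± 0.87 (SE) did not pass (limma adjusted p = 0.0730, and 0.0309 without mutant bcCML array 3), and the mutant leukaemias overlapped (-1.04 ± 0.87; adjusted p = 0.363). The wild-type Clec11a difference also passed with array weights. It passed too when only the wild-type groups were fitted, with or without the replicate number as a block. Clec18a was dim in AML, from 6.36 to 49.4 units, and between 4.5 and 4.52 on all bcCML arrays. It was at least 1.45-fold lower in wild-type and at least 1.22-fold lower in mutant bcCML (limma adjusted p = 0.00897 and 0.0132), and the mutant call ended when only the mutant groups were fitted (adjusted p = 0.0599).

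The shares of all tested genes called, to set beside each list that follows, were 19.3% lower and 17.7% higher in wild-type bcCML, and 21.9% lower and 23.2% higher in mutant bcCML. Of 20 tested genes of Syk and Card9 signalling, 10 were lower and 0 higher in wild-type bcCML, and 12 were lower and 0 higher in mutant bcCML, with a median log2 difference of -0.69 in each. Tyrobp, the adaptor of Clec5a, had the smallest p, with 14466 ± 323 units in wild-type AML and 1286 ± 472 in wild-type bcCML (SD, n = 3; log2 -3.57 ± 0.27, SE; limma adjusted p = 5.10e-06). Fcer1g, the adaptor of Clec4d, Clec4e and Clec4n, had a log2 difference of -0.88 ± 0.18, at 7062 ± 256 and 3863 ± 675 units (limma adjusted p = 0.00343). Syk, the kinase below both, measured 1503 ± 87.7 and 998 ± 160 units (log2 -0.60 ± 0.18, SE; limma adjusted p = 0.0217), and in mutant cells it did not pass (-0.37 ± 0.18; adjusted p = 0.114). The wild-type Syk call ended without wild-type AML array 2 or 3 or wild-type bcCML array 3 (highest adjusted p 0.0875), and with the mean of its probe sets (-0.30; limma adjusted p = 0.490). It also ended when only the wild-type groups were fitted with the replicate number as a block.

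Prkcd, a kinase that activates Card9, the exchange factor gene Vav3 and the Src family kinase gene Fgr followed in wild-type cells, with log2 differences of -2.01, -2.23 and -3.79. Prkcd, Fgr and the exchange factor gene Vav1 followed in mutant cells, at -2.86, -6.27 and -1.23. Of 8 tested genes of inhibitory signalling, 3 were lower and 2 higher in wild-type bcCML (all tested genes 19.3% and 17.7%). In mutant bcCML 3 were lower and 1 higher (all tested genes 21.9% and 23.2%). The adaptor genes Dok3 (-2.64 and -3.72) and Dok2 (2.15 and 2.27) went opposite ways in wild-type and mutant cells alike. Cbl, a ubiquitin ligase gene, and Ptpn6, a phosphatase of inhibitory receptors, were lower, at -0.83 and -1.06 in wild-type cells. Ptpn11, the other such phosphatase, was higher in wild-type bcCML (0.63, limma adjusted p = 0.0262). In mutant cells Ptpn11 did not pass (0.48, limma adjusted p = 0.0685).

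Among other genes with a C-type lectin domain, 15 of 57 on the array table were tested. In wild-type bcCML 7 were lower and 0 higher (all tested genes 19.3% and 17.7%), led by the thrombomodulin gene Thbd (3266 units in AML, 41.7 in bcCML), Cd93, the oxidised lipoprotein receptor gene Olr1 (1740 and 59.5 units) and Cd302. In mutant bcCML 7 were lower and 1 higher (all tested genes 21.9% and 23.2%). The median differences were -1.43 and -2.00. Of 4 tested ligands and counter-receptors, Vim and Klrb1f were lower in wild-type bcCML (-0.95 and -0.84). None passed in mutant bcCML, where 45.1% of all tested genes passed. There limma gave 1, Vim, with an unadjusted p under 0.05, a level at which all tested genes were not counted for this comparison. The Klrb1f call ended without wild-type AML array 1 or 2 or wild-type bcCML array 1 (highest adjusted p 0.0877). It also ended with no filter on dim probe sets, and when only the wild-type groups were fitted, with or without the replicate number as a block. Vim in mutant bcCML (-0.49; limma adjusted p = 0.0738) passed under 5 other settings and without mutant AML array 1 (0.0332). Pdpn, the ligand of Clec1b, was below 16 units on all arrays.

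Of 12 tested transcription factors linked to myeloid lectin expression, 7 were lower and 1 higher in wild-type bcCML (all tested genes 19.3% and 17.7%), and 8 were lower and 1 higher in mutant bcCML (21.9% and 23.2%). Irf8 measured 1656 ± 326 units in wild-type AML and 6.47 ± 2.45 in wild-type bcCML, Cebpd 257 ± 83.3 and 7.33 ± 0.60, and Spi1 1092 ± 180 and 187 ± 61.2 (SD, n = 3). Gata1, of the erythroid and megakaryocyte lineages, was the gene that was higher, at 9.04 ± 0.35 and 1159 ± 298 units. Markers of several cell types moved with these differences. In wild-type and mutant bcCML, 7 and 6 of 10 monocyte and macrophage markers were lower, with Fcgr1 higher in wild-type cells, and 8 and 9 of 10 neutrophil markers were lower. Megakaryocyte and platelet markers were higher for 5 and 4 of 5 tested, erythroid markers for 3 of 3 in each, and mast cell and basophil markers for 3 and 2 of 5. Their part in the Clec values was not tested.

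The second comparison asked what loss of Msi2 changed among the Clec genes. None of the 14 tested members passed in AML, in bcCML, for the shared effect or for the difference of the effects (limma, adjusted p from 0.163 upwards), where 1.52%, 0.139%, 0.471% and 0% of all tested genes passed. At an unadjusted p under 0.05 limma gave 1, 2, 1 and 1 of the 14 members, where 14.2%, 8.32%, 13.7% and 9.37% of all tested genes passed that level. In AML no member's mutant and wild-type arrays were fully apart, as they were for 16.7% of all tested genes. Without mutant AML array 1 or mutant AML array 2 the AML count was 1 in place of 0. The estimates were positive for 9 and negative for 5 members in AML (median 0.14, all genes -0.046). In bcCML they were positive for 3, negative for 10 and 0 for Clec18a (median -0.35, all genes -0.024). Clec7a, Clec4a3, Clec5a, Clec4b1, Clec4n and Clec18a were below 16 units on every bcCML array, where values have no order. The signs of these members in bcCML, and the counts that include them, therefore show no direction.

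**Figure D3:**
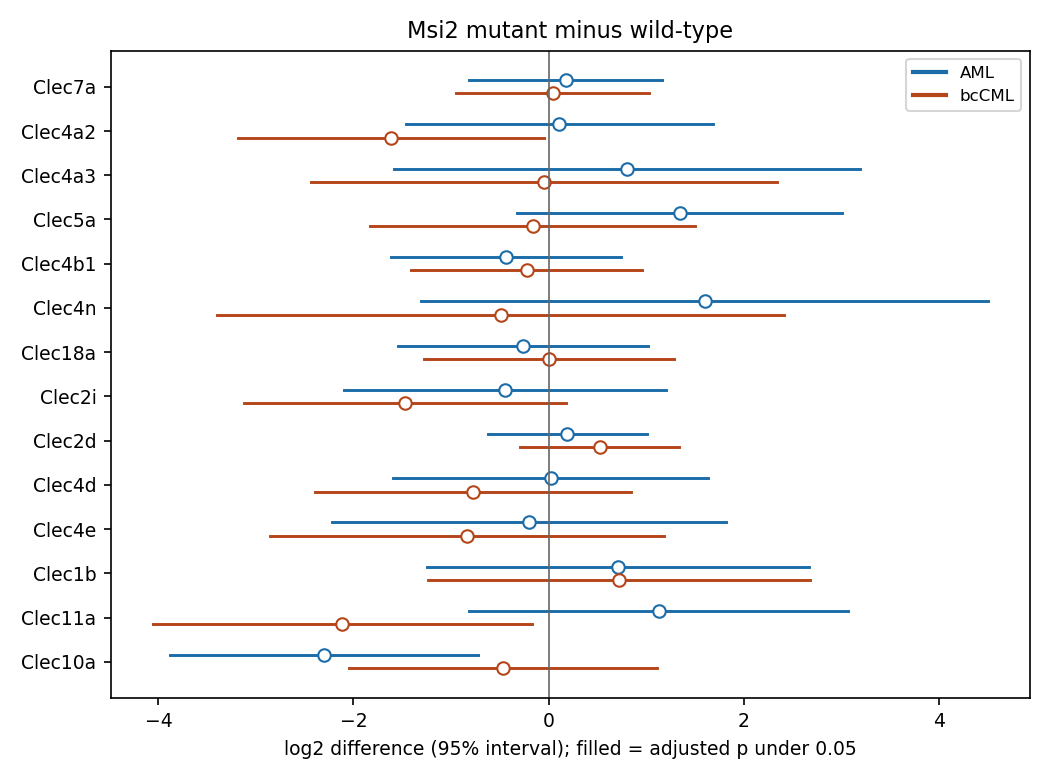
Log2 difference of each tested Clec gene, Msi2 mutant minus wild-type (horizontal axis), in AML and in bcCML, with 95% intervals from limma. No point is filled, since no adjusted p was under 0.05, and the intervals of Clec4n, between -3.40 and 4.5, are the widest.

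These tests were limited by the spread of the members. The SD of log2 intensity among 3 replicates had a median of 0.74, 1.16, 0.79 and 1.07 over the members above log2 4 in wild-type AML, mutant AML, wild-type bcCML and mutant bcCML. Over all tested genes above log2 4 the medians were 0.24, 0.29, 0.24 and 0.21. The median standard error of an Msi2 difference was 0.74 for the members and 0.24 for all tested genes. For Clec7a in AML the 95% interval ran from -0.82 to 1.16 on the log2 scale, for Clec2d from -0.62 to 1.01, and for Clec4a3 from -1.59 to 3.20.

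Clec10a had the smallest p in AML. Wild-type array 1 was the highest at 237 units and mutant arrays 1 and 3 were below 16 units, but mutant array 2 at 79.6 lay within the wild-type range, which began at 63.3. Its log2 difference of -2.30 ± 0.71 (SE) did not pass (limma adjusted p = 0.163). It passed without mutant AML array 2 (-3.21; limma adjusted p = 0.0236). In bcCML the log2 difference was -0.47 ± 0.71 (limma adjusted p = 0.923), and the interaction term for Clec10a was 1.83 ± 1.0 (SE; limma adjusted p = 0.616).

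Clec11a had the smallest p in bcCML and for the difference of the effects. In bcCML the log2 difference was -2.11 ± 0.87 (SE; limma adjusted p = 0.574), with 2 mutant arrays below and 1 within the wild-type range. In AML it was 1.13 ± 0.87 (limma adjusted p = 0.647), with 2 mutant arrays above and 1 within the wild-type range. The difference of the effects, -3.24 ± 1.24, did not pass (limma adjusted p = 0.434). The other member with an unadjusted p under 0.05 in bcCML was Clec4a2 (-1.62 ± 0.71, SE; limma adjusted p = 0.585). By the tested probe set it was above 16 units on wild-type bcCML array 1 alone. Its second probe set differed, above 16 units on wild-type array 2 (21.63) and mutant array 1 (22.69) and below on wild-type array 1 (12.65). In bcCML, Clec2i averaged 292 ± 125 units without and 149 ± 167 units with the gene trap (SD, n = 3; log2 -1.47 ± 0.74, SE; limma adjusted p = 0.637). Clec2d was higher on every mutant than on every wild-type bcCML array (log2 0.53 ± 0.37, SE; limma adjusted p = 0.763). In this direction 5.83% of all tested genes were fully apart in bcCML. Clec2d was the only tested member whose genotypes were fully apart, in either direction, in a leukaemia.

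Within AML the Clec4 genes differed between mutant arrays. On mutant array 1, 7 of the 14 members had their lowest AML value (Clec10a, Clec2i, Clec4a3, Clec4b1, Clec4d, Clec4e and Clec4n) and 4 their highest (Clec11a, Clec18a, Clec1b and Clec4a2). For Clec10a, Clec4b1 and Clec4n the lowest and the next lowest value were both below 16 units, where values have no order. How often each array was lowest or highest over all tested genes was not counted, so these counts show no trait of the members. On mutant array 2, 6 had their highest (Clec4a3, Clec4d, Clec4e, Clec4n, Clec5a and Clec7a). The monocyte and macrophage markers averaged 8.74 on mutant array 1, 10.8 on mutant array 2 and 10.2 on mutant array 3 (log2), and between 9.97 and 10.3 on the wild-type arrays, and their part in these values was not tested. Csf1r, a marker of this list, measured 1532 units on mutant array 1 and 10604 on mutant array 2. F13a1, of the same list, went the other way, at 3702 and 3318 units. Ccr2 and Ms4a6c were highest on wild-type array 2, at 2913 and 8444 units. Clec4a2 did not share this order, with its highest value on mutant array 1.

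**Figure D4:**
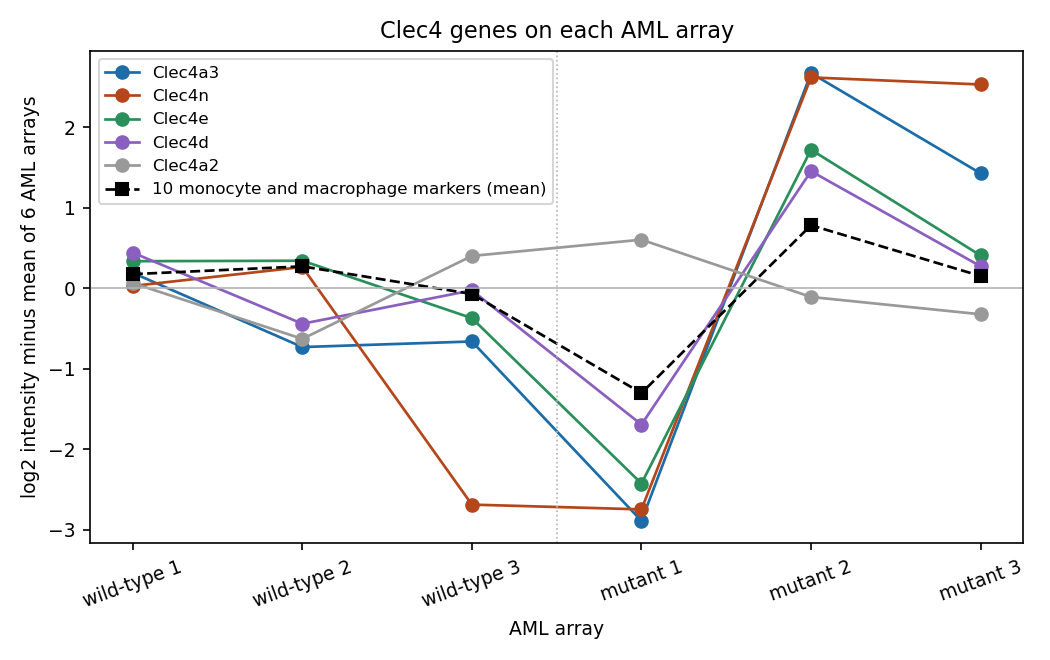
Log2 intensity of 5 Clec4 genes and the mean of 10 monocyte and macrophage markers on each of the 6 AML arrays, each as the difference from its mean over these arrays (vertical axis). Clec4a3, Clec4e, Clec4d and the markers are lowest on mutant array 1, and these and Clec4n are highest on mutant array 2. Clec4n is near the floor on mutant array 1 and wild-type array 3, and Clec4a2 is highest on mutant array 1.

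Leaving out mutant array 1 changed 1 member in AML. Its removal gave Clec4a3 a log2 difference of 2.45 (limma, adjusted p = 0.0149), with both remaining mutant arrays above all 3 wild-type arrays, where with all arrays it differed by 0.80 ± 1.08 (SE; adjusted p = 0.838). Leaving out mutant array 2 in its place gave -0.33 (limma adjusted p = 0.958). The signalling lists held no gene past the threshold for loss of Msi2 in either leukaemia, with limma giving 5 of 20 Syk and Card9 genes at an unadjusted p under 0.05 in AML (Vav1, Fgr and Lcp2 with positive, Btk and Rela with negative estimates) and 0 in bcCML, beside 14.2% and 8.32% of all tested genes. Among the other C-type lectin domain genes Cd93, a receptor linked to uptake of dying cells, was lower in mutant AML (3253 and 8493 units, limma adjusted p = 0.0396), a call lost on leaving out any of 10 of the 12 arrays, all but wild-type bcCML arrays 1 and 2.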

How the data were processed

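RNA from sorted leukaemic cells was hybridised to 1-colour Affymetrix arrays, 3 biological replicates per group per the labels. The authors deposited linear intensity values for 45037 probe sets, normalised with GCRMA per the submitters' processing notes (no version is named there). This method subtracts a modelled background, so dim probe sets pile up at a floor and low values have no order. Of the probe sets, 34945 carried 1 gene symbol, 932 several and 9160 none or no entry in the annotation table, which can be old. The array values carry no genome build.

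Values were taken to log2 without a pseudocount. A gene was tested where its probe set of highest mean exceeded log2 4 on at least 3 of 12 arrays. In R 4.3.3, limma 3.58.1 estimated the means of all 4 groups (8 residual degrees of freedom), with 6 contrasts and Benjamini-Hochberg adjustment over 10817 genes at 0.05. The comparisons share arrays and 1 estimate of the spread. Where a group was below 16 units on all its arrays, the bound "at least N-fold" sets the brighter group's mean log2 value against log2 4. Clec4a and Clec4b genes are close relatives whose probe sets may cross-hybridise. The number of arrays limits the precision. The fit was tested on simulated data.

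Same-numbered wild-type and mutant arrays deviated together in bcCML (correlations 0.278 to 0.396) and not in AML (-0.121 to -0.030). This pairing comes from the data, since no label states one. Alternatives covered the filter, log scale, probe set rule, normalization, limma settings, replicate block and leaving out each array. Members, gene lists and tests were chosen with earlier results of these data known. Every tested Clec gene is described. Of the other lists, up to 4 genes past the threshold with the smallest p per list and comparison are named. The adaptors Fcer1g and Tyrobp and the kinase Syk are named in any case, and Ptpn11 was added beside Ptpn6. Promoters are from RefSeq.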

Additional observations from a re-analysis of the deposited data

How the results depend on the processing

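Log2 differences were tallied under the alternatives for called members and for chosen uncalled differences of Clec10a, Clec4a3, Clec11a, Clec2i and Clec4d. Of these 546 values, 501 kept their direction and their side of the threshold, 32 lost a call, 12 gained one and 1 changed direction. The remaining uncalled differences are not in this tally, so it does not show how often those changed direction. Clec7a, Clec4a2, Clec4a3, Clec10a and Clec5a kept their calls between the leukaemias, in wild-type and mutant cells, under every alternative run. For loss of Msi2 in AML the count of called members was 0 with all arrays and 1 with array weights (Clec10a). Leaving out each array in turn gave 0 to 1. It was 1 without mutant AML array 1 (Clec4a3, log2 difference 2.45) and 1 without mutant AML array 2 (Clec10a), where Clec4a3 turned to -0.33. The cause was not tested. In bcCML, for the shared effect and for the difference of the effects, the count was 0 in each alternative run. Between the leukaemias the counts of 7 and 9 ranged over 6 to 8 and 6 to 9 on leaving out each array, and over 5 to 10 and 7 to 9 otherwise. With the replicate number as a block over all arrays, they stayed at 7 and 9, and at 0 for loss of Msi2. This block also ties same-numbered arrays of AML and bcCML, so it does not model the pairing seen within bcCML alone. With a higher filter, of log2 5, dim members have no value. The floor limits what can be said of members below 16 units.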

Other observations

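Mgl2 encodes a close relative of Clec10a, and was singled out after its values were seen. It had the opposite pattern to Clec10a, at 65.9, 916 and 4.55 units in wild-type AML and 613, 680 and 279 in mutant AML, and it was near the floor in bcCML. It was at least 30.5-fold lower in mutant bcCML than in mutant AML (limma adjusted p = 0.00313), and did not pass in wild-type cells (log2 -3.84; limma adjusted p = 0.0558). The wild-type Mgl2 difference passed with trend and robust settings, array weights or the replicate block (limma adjusted p = 0.0429, 0.00208 and 0.0468). It was -1.93 without wild-type AML array 2 (limma adjusted p = 0.130) and -5.75 without wild-type AML array 3 (0.00106).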
